A study of Rattus norvegicus with 15 samples.

Results

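The 6 immediate-early response genes described here were followed in whole blood of rats in which deep venous thrombosis, the clotting of a deep vein, had been modelled. They are a list of identifiers set by function, with no threshold on a measured value: Fos (ENSRNOG00000008015), Jun (ENSRNOG00000026293), Egr1 (ENSRNOG00000019422), Atf3 (ENSRNOG00000003745), Dusp1 (ENSRNOG00000003977) and Nfkbia (ENSRNOG00000007390). All 6 were among the 17599 features of the expression table, which holds annotated genes and gene models assembled from reads. All 6 also passed the filter on low values (3 or more libraries at 10 or above) that left 11117 features for testing. The animals of every group were males of the outbred Sprague-Dawley stock, aged 6 to 8 weeks and weighing 250 to 300 g. The 15 samples form 5 groups of 3. Sham is labelled 0 h after modelling, and the other groups are 1 h, 6 h, 12 h and 72 h (3 days). How the clot was induced, how sham animals were treated and whether each sample is 1 animal are not stated in the labels. The p-values accordingly cover the spread among these samples alone, part of which may be technical.

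Immediate-early genes are transcribed within minutes of a stimulus from transcription factors that are already present in the cell, without new protein synthesis. Their messengers are short-lived, and in blood leukocytes they respond to cytokines, adhesion, stress and handling of the sample. Fos and Jun proteins pair to form AP-1, a dimer that binds DNA. Atf3 is a stress-induced factor of the ATF/CREB family that can pair with Jun, and Egr1 is a zinc-finger factor induced through serum response factor. Dusp1 and Nfkbia close feedback loops: Dusp1 encodes a phosphatase that inactivates MAP kinases, and Nfkbia encodes the inhibitor that holds NF-kB in the cytoplasm.

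Promoters of 3 members were found in the RefSeq promoter table of the GRCr8 build, each from 250 bases before to 50 after the gene's start. They are shown as the regulatory sequence next to the start of a transcription factor and of both feedback genes. The expression files use another build, Rnor_6.0, and their measurements do not bear on these bases. Capitals mark motif matches. Fos, Jun and Atf3 are named only.
Egr1, chr18:26736828-26737127, plus strand: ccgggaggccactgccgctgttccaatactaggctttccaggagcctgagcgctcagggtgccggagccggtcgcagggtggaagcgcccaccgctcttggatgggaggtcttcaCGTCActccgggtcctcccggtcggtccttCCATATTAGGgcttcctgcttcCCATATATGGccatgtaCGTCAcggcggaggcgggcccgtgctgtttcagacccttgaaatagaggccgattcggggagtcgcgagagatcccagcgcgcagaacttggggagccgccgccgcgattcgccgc
Dusp1, chr10:17184603-17184902, plus strand: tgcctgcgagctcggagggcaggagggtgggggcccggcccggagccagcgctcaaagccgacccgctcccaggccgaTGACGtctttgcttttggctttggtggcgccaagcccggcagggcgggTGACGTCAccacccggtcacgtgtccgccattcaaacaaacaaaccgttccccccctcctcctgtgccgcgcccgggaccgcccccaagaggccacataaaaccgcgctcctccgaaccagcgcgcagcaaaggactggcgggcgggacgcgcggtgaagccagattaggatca
Nfkbia, chr6:78597023-78597322, minus strand: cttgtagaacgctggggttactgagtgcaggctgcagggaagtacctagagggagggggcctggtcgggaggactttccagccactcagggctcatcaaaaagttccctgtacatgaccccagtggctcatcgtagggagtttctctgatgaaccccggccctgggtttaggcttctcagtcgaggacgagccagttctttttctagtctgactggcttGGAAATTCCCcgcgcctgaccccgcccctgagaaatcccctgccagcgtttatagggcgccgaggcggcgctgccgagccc
The Egr1 promoter held 2 matches to the CArG box, the binding motif of serum response factor, with first bases at -105 and -83 from the start. It also held the core of the cyclic AMP response element, TGACG, at 2 places on the opposite strand, -135 and -66. The Dusp1 promoter held a full response element, TGACGTCA, at -124, which itself contains 2 overlapping cores, and a separate core at -172. The Nfkbia promoter held 1 match to the NF-kB consensus at -31. Searched on both strands, the CArG box was present in 1.64% of the 33469 promoters of the table, the full response element in 1.83%, the core in 21.2% and the NF-kB consensus in 6.15%. The AP-1 motif TGACTCA (4.63% of promoters) and the EGR motif GCGTGGGCG (0.544%) had no match in the windows of these 3 members. A match describes letters in a window and is not a measured binding site.

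Values are normalised read counts, which are reads divided by a factor for each library. Libraries held 29.2 to 43.3 M reads (mega-reads), of which 4.67 to 7.65 M lay outside 5 dominant features. The lowest factor, 0.584, belonged to 12 h replicate 2 and the highest, 2.67, to 12 h replicate 3. The sample titles carry a code, A&B or C, that is called a run label here, although the titles do not say what it marks. Run label A&B covers the 9 libraries of sham, 1 h and 72 h, while run label C covers the 6 of 6 h and 12 h. Time and run label therefore cannot be told apart where 6 h or 12 h is set against sham, 1 h or 72 h. Blood is a mixture, so fewer cells of a type and less RNA per cell cannot be told apart in any value given here. No table paired the other identifiers with symbols, and the tissue could not be checked against markers of blood cells.

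**Figure D1:**
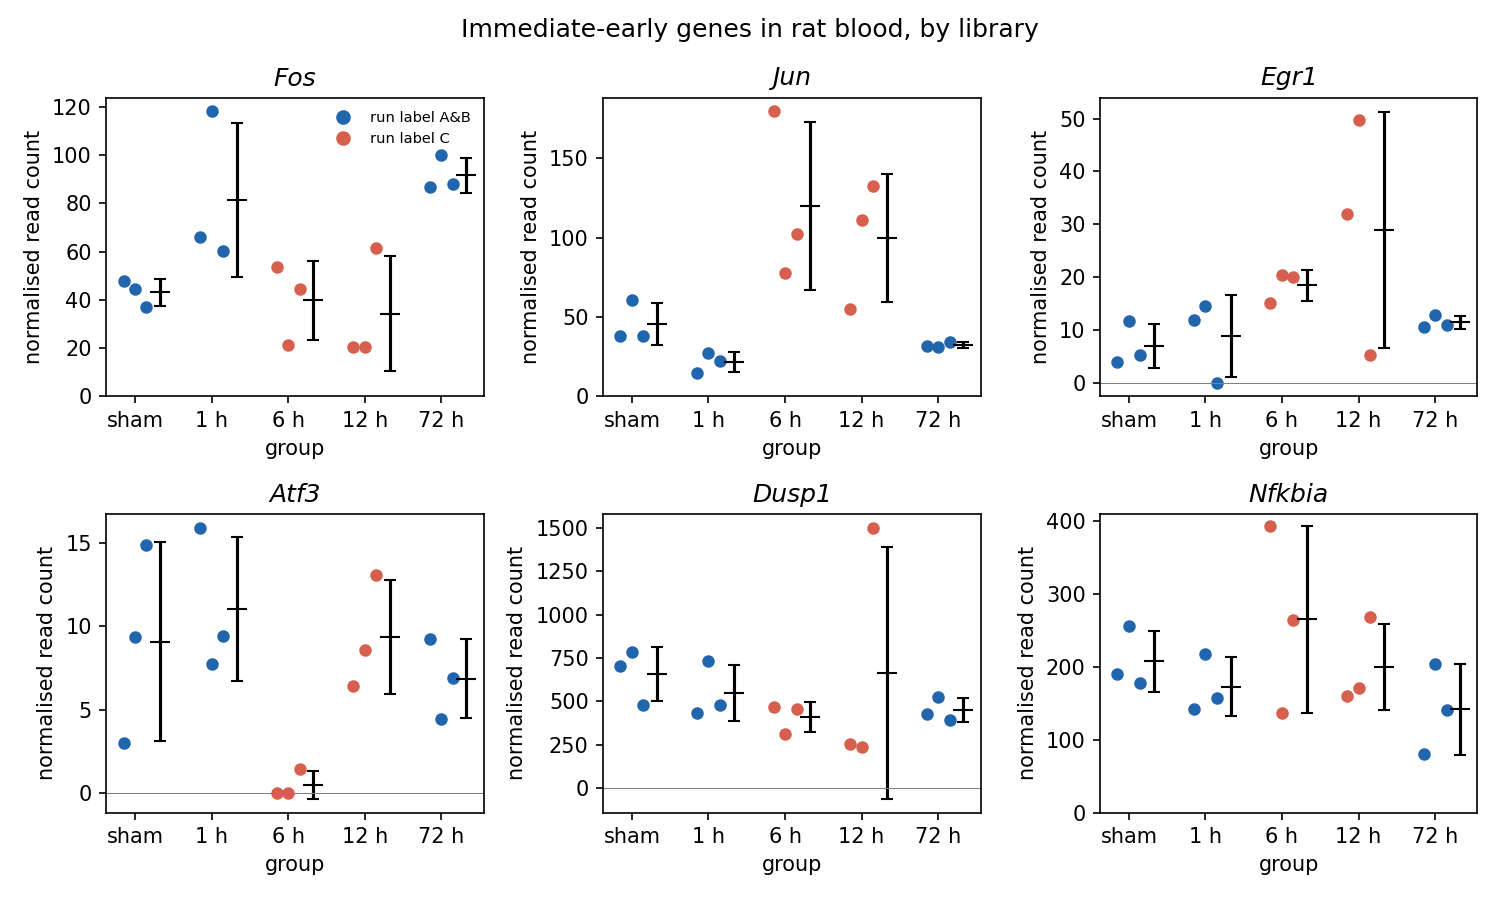
Normalised read count of each member (y axis, linear) in the 15 libraries by group (x axis), coloured by run label. Points are libraries in the order of replicate 1, 2 and 3, and bars show the mean ± SD (n = 3). Fos is highest at 1 h and 72 h, Jun at 6 h and 12 h, and a single 12 h library carries the highest Dusp1 value, 1500.

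Fos values were higher at 1 h and 72 h than in sham, and Jun values were lower at both times. Fos in sham was 47.8, 44.5 and 36.9 in replicates 1, 2 and 3. At 1 h it was 66.2, 118 and 60.1, and at 72 h it was 86.9, 99.97 and 88.1. Every library of both later groups lay above every sham library, while 1 h and 72 h overlapped each other. At 6 h Fos was 53.5, 21.4 and 44.3, and at 12 h it was 20.5, 20.6 and 61.7. Both of these groups straddled the sham values. Group means of Fos, in the order sham, 1 h, 6 h, 12 h and 72 h, were 43.1 ± 5.64, 81.5 ± 32.0, 39.8 ± 16.5, 34.2 ± 23.8 and 91.6 ± 7.24 (SD, n = 3 each). In the order of means 72 h and 1 h stood first without touching sham, and sham, 6 h and 12 h overlapped.

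The log2 difference of Fos from sham was 0.85 at 1 h (SE 0.44, limma adjusted p = 0.722) and 1.08 at 72 h (SE 0.44, adjusted p = 0.620). Neither passed the threshold of 0.05, and the unadjusted p were 0.0695 and 0.0248. At 6 h and 12 h the differences were -0.20 and -0.51, with adjusted p of 0.859 and 0.640. The sign at 6 h turned to 0.18 without 6 h replicate 2. The difference at 12 h was called with array weights (-0.98, adjusted p = 0.0180). It was -1.03 without 12 h replicate 3 (adjusted p = 0.0901) and -0.25 without 12 h replicate 1. Array weights gave 12 h replicate 1 the highest weight of all libraries, 4.34, beside 0.458 and 0.202 for replicates 2 and 3. With them 3604 of the 11117 features tested were called at 12 h. In normalised counts Fos therefore had non-overlapping values but no call against sham at either time of run label A&B.

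Jun, the AP-1 partner, ran the other way. In sham it was 37.9, 60.9 and 38.1. At 1 h it was 14.6, 27.2 and 22.5, and at 72 h it was 31.6, 31.2 and 34.4. Every library of both groups lay below every sham library, and 1 h lay below 72 h without overlap. At 6 h Jun was 180 in replicate 1, 77.9 in replicate 2 and 102 in replicate 3. At 12 h it was 55.0, 111 and 133. All 6 h libraries stood above sham, whereas the lowest 12 h library was below the highest sham library. Group means were 45.6 ± 13.2, 21.4 ± 6.37, 119.9 ± 53.1, 99.7 ± 40.2 and 32.4 ± 1.76 from sham to 72 h (SD, n = 3 each).

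The log2 difference of Jun from sham was -1.06 at 1 h (SE 0.40, adjusted p = 0.514) and 1.32 at 6 h (SE 0.40, adjusted p = 0.118). At 12 h it was 1.05 (adjusted p = 0.289) and at 72 h it was -0.45 (adjusted p = 0.812). None passed in limma. The 12 h difference was 0.42 with array weights and 0.55 with equal totals. The 72 h difference was -0.23 without sham replicate 2 and -0.81 with equal totals. At 6 h the adjusted p was 0.0298 by DESeq2 on recovered reads, beside 636 of all 17599 features called. It was 0.0372 with the log2 factor of the library as covariate, 0.0434 with array weights and 0.0465 without 12 h replicate 3. These settings called 777, 1223 and 753 of the 11117 features tested. The adjusted p at 6 h stayed above 0.05 under the other 24 alternatives. With equal totals the 6 h difference was 0.62 (adjusted p = 0.557). Between 72 h and 1 h the log2 difference was 0.62 (SE 0.40, adjusted p = 0.691).

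**Figure D2:**
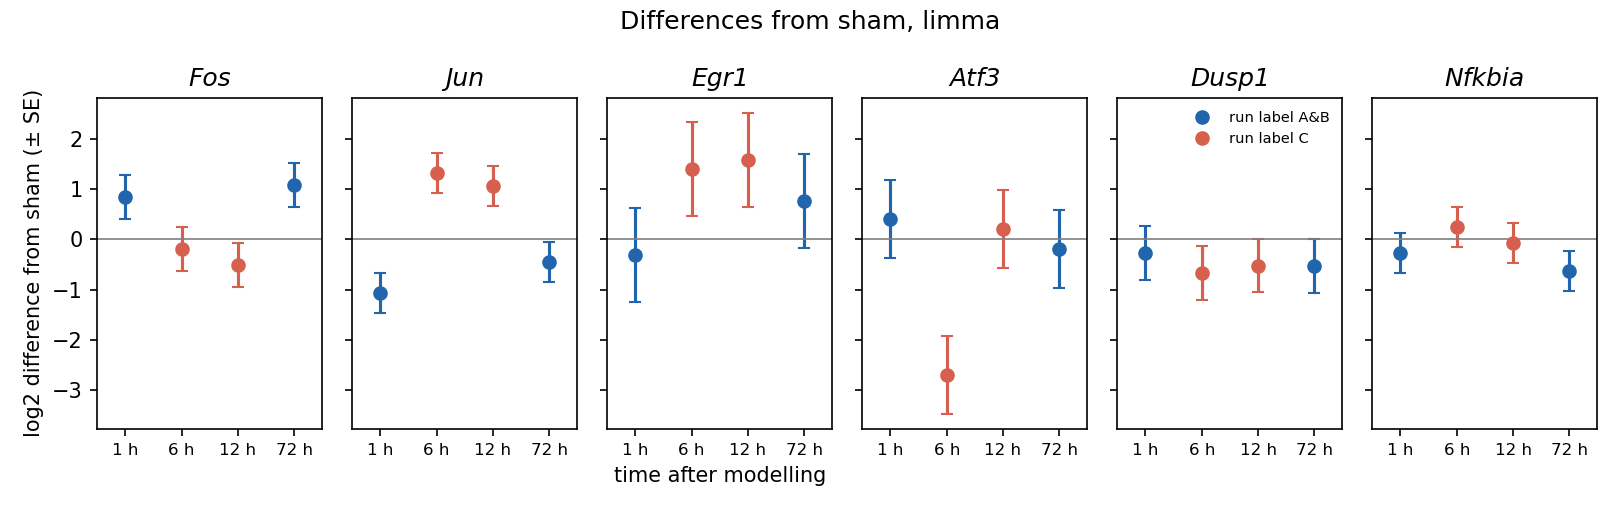
Log2 difference from sham of each member (y axis) at 4 times after modelling (x axis) from the limma fit to log2(value + 1), with bars of ± 1 SE and colours for run label. Jun lies at -1.06 at 1 h and 1.32 at 6 h, Atf3 at -2.69 at 6 h, and most Dusp1 and Nfkbia bars reach or nearly reach 0.

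Counted over the 6 members, limma called 0 at 1 h, beside 0.135% of all features tested. It called 0 at 6 h, beside 0.486%, and 0 at 12 h, beside 0.072%. It called 0 at 72 h, beside 0% of all features, 0 for 72 h against 1 h, beside 0.018%, and 0 for 12 h against 6 h, beside 0%. At an unadjusted p under 0.05 the members numbered 1, 2, 1, 1, 0 and 1 in the same order, beside 7.29%, 17.1%, 13.1%, 7.25%, 9.01% and 3.8% of all features tested. edgeR called 0 members in all of these 6 comparisons, beside 0%, 0.495%, 0.054%, 0%, 0.009% and 0% of features. DESeq2 called 1 member at 6 h (Jun) and 0 elsewhere, beside 0.409%, 3.61%, 1.78%, 0.165%, 0.403% and 0.0682% of all 17599 features.

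Values without overlap were more frequent than calls. At 1 h they were found in 2 of 6 members (Fos higher, Jun lower), beside 20.9% of all features. At 6 h they were found in 4 of 6 (Jun and Egr1 higher, Atf3 and Dusp1 lower), beside 27.9%. At 12 h no member stood clear of sham, beside 15.6% of features. At 72 h there were 2 (Fos higher, Jun lower), beside 17.6%. Between 72 h and 1 h there was 1 (Jun higher), beside 16.8%, and between 12 h and 6 h there was 1 (Atf3 higher), beside 5.71%. The median log2 difference of the 6 members from sham, in the order of time, was -0.27, 0.02, 0.06 and -0.32. Over all features it was 0.02, -0.04, -0.06 and -0.05. At each time some members were above sham and others below it.

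The middle times, 6 h and 12 h, were contrasted with the outer times, 1 h and 72 h, which also contrasts the run labels, and both AP-1 genes were called. Jun was higher at the middle times, by 1.94 on the log2 scale (SE 0.28, limma adjusted p = 0.00141). Fos was lower by -1.32 (SE 0.31, adjusted p = 0.0363). The other members did not pass: Egr1 had 1.27 (adjusted p = 0.349), Atf3 -1.35 (adjusted p = 0.222), Dusp1 -0.20 (adjusted p = 0.842) and Nfkbia 0.53 (adjusted p = 0.361). With array weights Egr1 was called (1.96, adjusted p = 0.0409), beside 1753 of all 11117 features tested. With 1 library left out the Egr1 difference ran from 0.63 (without 1 h replicate 3) to 1.72 (without 12 h replicate 3). Dusp1 ran from -0.63 without 12 h replicate 3 to 0.03 without 12 h replicate 2. The 2 of 6 called stand beside 1.84% of all features. Over the 28 alternatives Jun was called in 27, with log2 differences of 1.502 to 2.13, and Fos in 12, with -1.61 to -1.13. The Jun call was lost with equal totals (adjusted p = 0.142). The Fos call was lost by edgeR (adjusted p = 0.0670), with equal totals (0.300) and on leaving out any 1 of 12 libraries (0.0532 to 0.0978), and it held without 6 h replicate 1, 6 h replicate 3 or 12 h replicate 3. In a test for any difference among the 5 groups limma called 1 member, Jun (adjusted p = 0.0145), beside 1.11% of all features. That call was lost without 1 h replicate 3 (adjusted p = 0.0593), with equal totals (0.424) and in the 3 groups of run label A&B alone (0.281). The adjusted p of that test was 0.168 for Fos and 0.144 for Atf3. The effect of run label on either gene was not tested, since each group carries a single label.

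**Figure D3:**
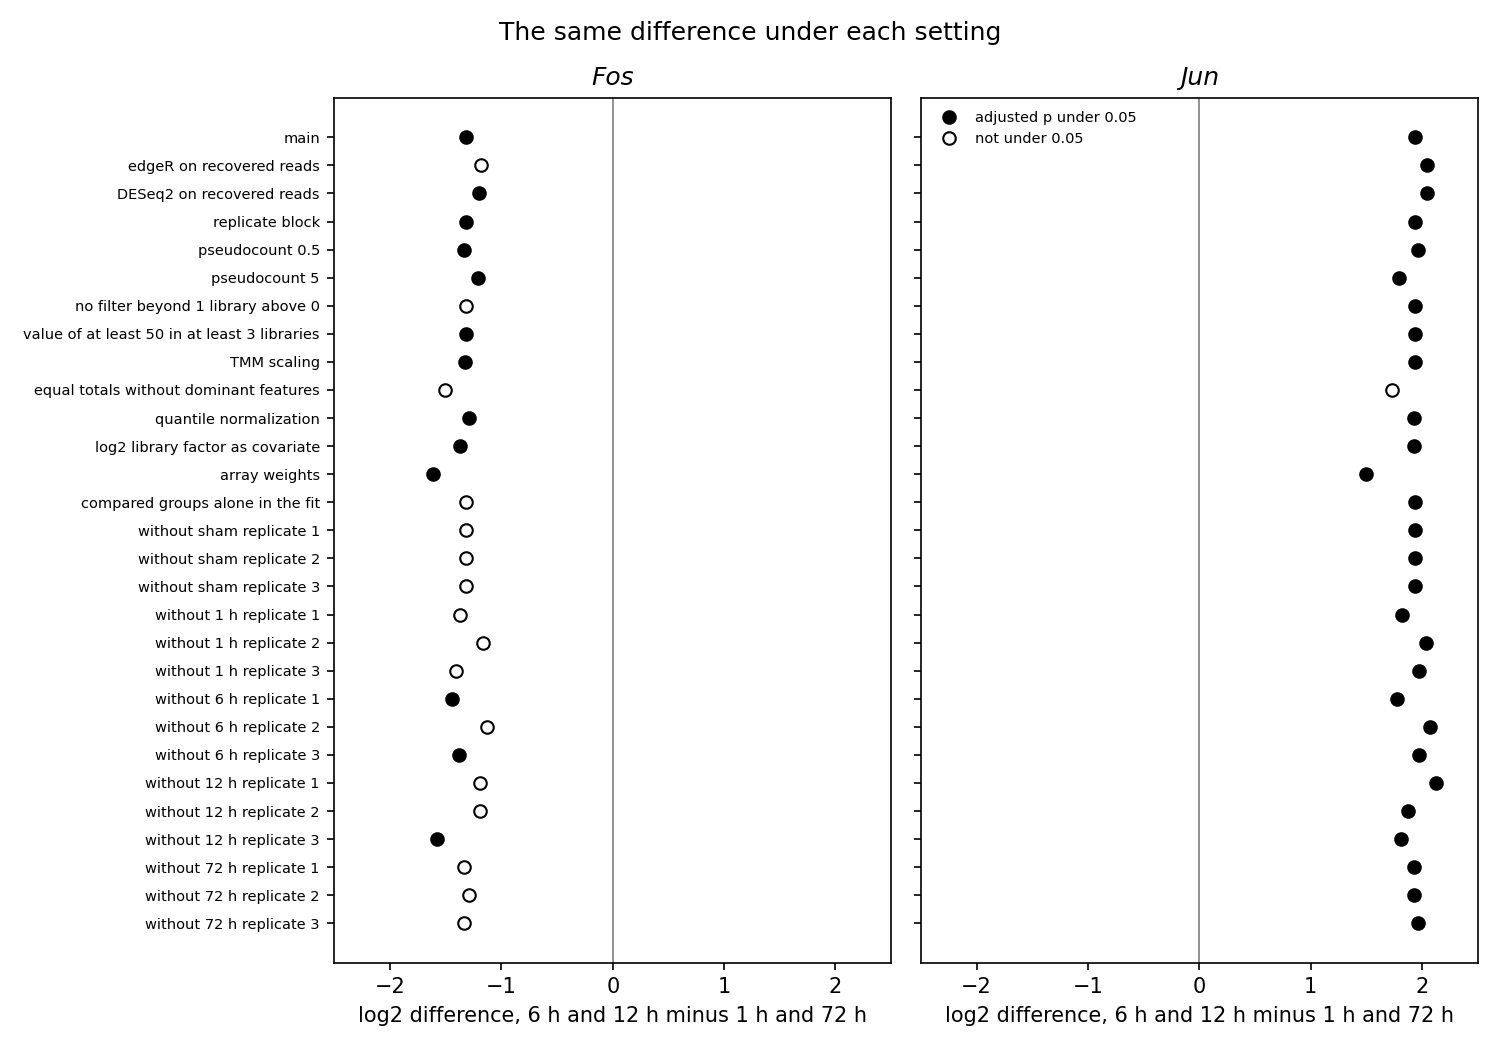
Log2 difference of Fos and Jun between 6 h and 12 h and 1 h and 72 h (x axis) under the reported setting, labelled main, and 28 alternatives (y axis). Filled points have an adjusted p under 0.05. Jun points are filled everywhere but with equal totals, and Fos points lie on the same side with 16 open.

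Within each library the factor cancels from the ratio of Fos to Jun reads. This ratio was chosen after the values were seen, so it is given without a test, and its size is not a comparison of levels because gene lengths were not used. In sham it was 1.26, 0.731 and 0.966. At 1 h it was 4.55, 4.36 and 2.67, and at 72 h it was 2.75, 3.20 and 2.56. At 6 h it was 0.298, 0.275 and 0.434, and at 12 h it was 0.372, 0.185 and 0.465. The 1 h and 72 h libraries lay wholly above sham and the 6 h and 12 h libraries wholly below it. Group means were 0.987 ± 0.267, 3.86 ± 1.03, 0.336 ± 0.0856, 0.340 ± 0.143 and 2.84 ± 0.331 from sham to 72 h (SD, n = 3 each). A ratio to Jun that stands clear of sham was common. From 1 h to 72 h, it was found in 54%, 53.6%, 38% and 21.2% of all features.

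**Figure D4:**
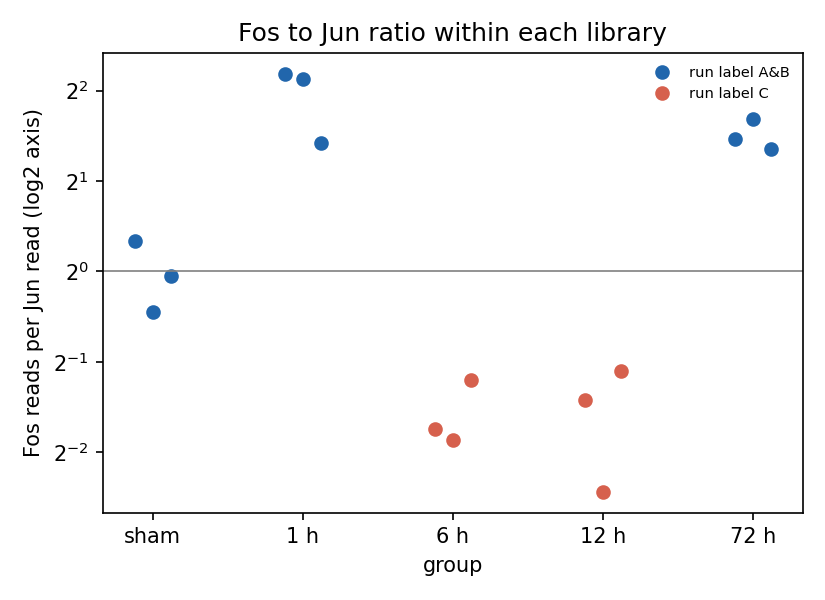
Fos reads per Jun read in each library (y axis, log2 axis) by group (x axis), coloured by run label; the line marks equal reads. Sham libraries lie near 1, all 1 h and 72 h libraries between 2.56 and 4.55, and all 6 h and 12 h libraries between 0.185 and 0.465.

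Fos and Jun values varied together inside the groups although their group means ran opposite ways. Across the 15 libraries the Pearson r of their log2 values was -0.48. After subtraction of each group's mean it was 0.67. Both values are descriptions over libraries that share their scaling.

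Egr1, the zinc-finger factor, was counted at low depth. Its reads numbered 212 over all libraries, and 1 h replicate 3 had none. In sham the normalised counts were 3.99, 11.7 and 5.17, and at 1 h they were 11.9, 14.5 and 0. A count of 0 in that library allows a value of up to 2.82 (3 reads). At 6 h they were 15.1, 20.3 and 20.0, all above sham. At 12 h they were 32.0, 49.7 and 5.24, so that replicate 3 fell among the sham values. At 72 h they were 10.5, 12.7 and 11.0. Group means were 6.96 ± 4.16, 8.82 ± 7.75, 18.5 ± 2.94, 29.0 ± 22.4 and 11.4 ± 1.16 from sham to 72 h (SD, n = 3 each). The log2 difference from sham was 1.40 at 6 h (SE 0.94, limma adjusted p = 0.472) and 1.58 at 12 h (adjusted p = 0.482). Neither passed in that fit. With array weights the 12 h difference was 2.09 (adjusted p = 0.0386), beside 3604 of all 11117 features called at 12 h. Those weights were 4.34, 0.458 and 0.202 in 12 h replicates 1, 2 and 3, so the weighted 12 h value rests mostly on replicate 1.

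Atf3, the stress-induced ATF/CREB factor, was close to the detection limit at 6 h. Its reads there numbered 0, 0 and 2 in replicates 1, 2 and 3, against 3, 12 and 23 in sham. Counts of 0 allow normalised values of up to 4.11 and 3.39 in the first and second 6 h libraries. The normalised counts were 2.99, 9.37 and 14.9 in sham and 15.9, 7.76 and 9.39 at 1 h. At 6 h the only value above 0 was 1.43. At 12 h they were 6.39, 8.57 and 13.1, and at 72 h they were 9.21, 4.46 and 6.88. The 6 h values as measured lay below those of all other libraries, although the limits at 0 reach above the lowest sham value.

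Pooled over each group's libraries, sham had 38 Atf3 reads against 2 at 6 h. After scaling this is 14.9 times the 6 h level, with an exact 95% interval of 3.86 to 128. The ratio was 15.8 (4.02 to 137) for 1 h, 16.8 (4.38 to 143) for 12 h and 9.37 (2.26 to 82.9) for 72 h. These intervals cover counting error only and not the spread between samples. In limma the log2 difference at 6 h from sham was -2.69 (SE 0.77, adjusted p = 0.101), and that of 12 h from 6 h was 2.89 (SE 0.77, adjusted p = 0.990). Their unadjusted p were 0.0030 and 0.00172. Both groups of the latter pair carry run label C. With so few reads the size of both differences depended on the setting. Over the alternatives that tested Atf3, the 6 h difference ran from -3.88 to -1.28, and that of 12 h from 6 h from 1.37 to 3.94. With array weights the 6 h difference was -2.71 with an adjusted p of 0.0286, beside 1223 of all 11117 features called. DESeq2 gave no adjusted p for the 6 h difference.

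Dusp1, the MAP kinase phosphatase, was the most deeply counted member, with 11098 reads. In sham its normalised counts were 706, 787 and 482, at 1 h 433, 735 and 480, and at 72 h 429, 526 and 395. At 6 h they were 468, 313 and 456, all below sham, with the highest 6 h value close to the lowest sham value. At 12 h they were 253, 236 and 1500, so that 2 libraries were the lowest and 1 the highest of all 15. Group means were 658 ± 158, 549 ± 163, 412 ± 86.4, 663 ± 724 and 450 ± 67.9 from sham to 72 h (SD, n = 3 each), and neighbours in the order of means all overlapped. The log2 difference was -0.67 at 6 h (SE 0.53, limma adjusted p = 0.559) and -0.52 at 12 h (adjusted p = 0.702).

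The 12 h value of Dusp1 rested on 1 library. Without 12 h replicate 3 the log2 difference from sham was -1.39 (SE 0.32, adjusted p = 0.0115), and with array weights it was -1.28 (adjusted p = 0.00301). Of all 11117 features tested, 1546 and 3604 were called at 12 h in these fits. By edgeR and DESeq2, which compare means of reads, the Dusp1 difference was 0.03 and 0.02. The library 12 h replicate 3 also has the largest factor of the series. With group in the model, Dusp1 had a slope of 0.87 on the log2 factor (limma adjusted p = 0.00305), and 1.44% of the most abundant 25% of features had a steeper one. The slope includes 12 h replicate 3 and was not refitted without it, so how far it rests on that library was not tested. A slope past the threshold was found in 33.7% of all features, 1676 rising and 2074 falling with the factor. The median slope was 0.47 in the least abundant 25% of features and -0.39 in the most abundant 25%. Because values are reads divided by this factor, slope and value share a term. The slopes of the other members were 0.50 for Fos, 0.16 for Jun, -0.91 for Egr1, 0.34 for Atf3 and 0.35 for Nfkbia, with adjusted p of 0.0809, 0.586, 0.168, 0.588 and 0.179. The slopes were taken up after the values were seen. In the same fit, with the factor as a covariate, the Dusp1 difference at 12 h was -0.32 (adjusted p = 0.678), beside -0.52 without it.

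**Figure D5:**
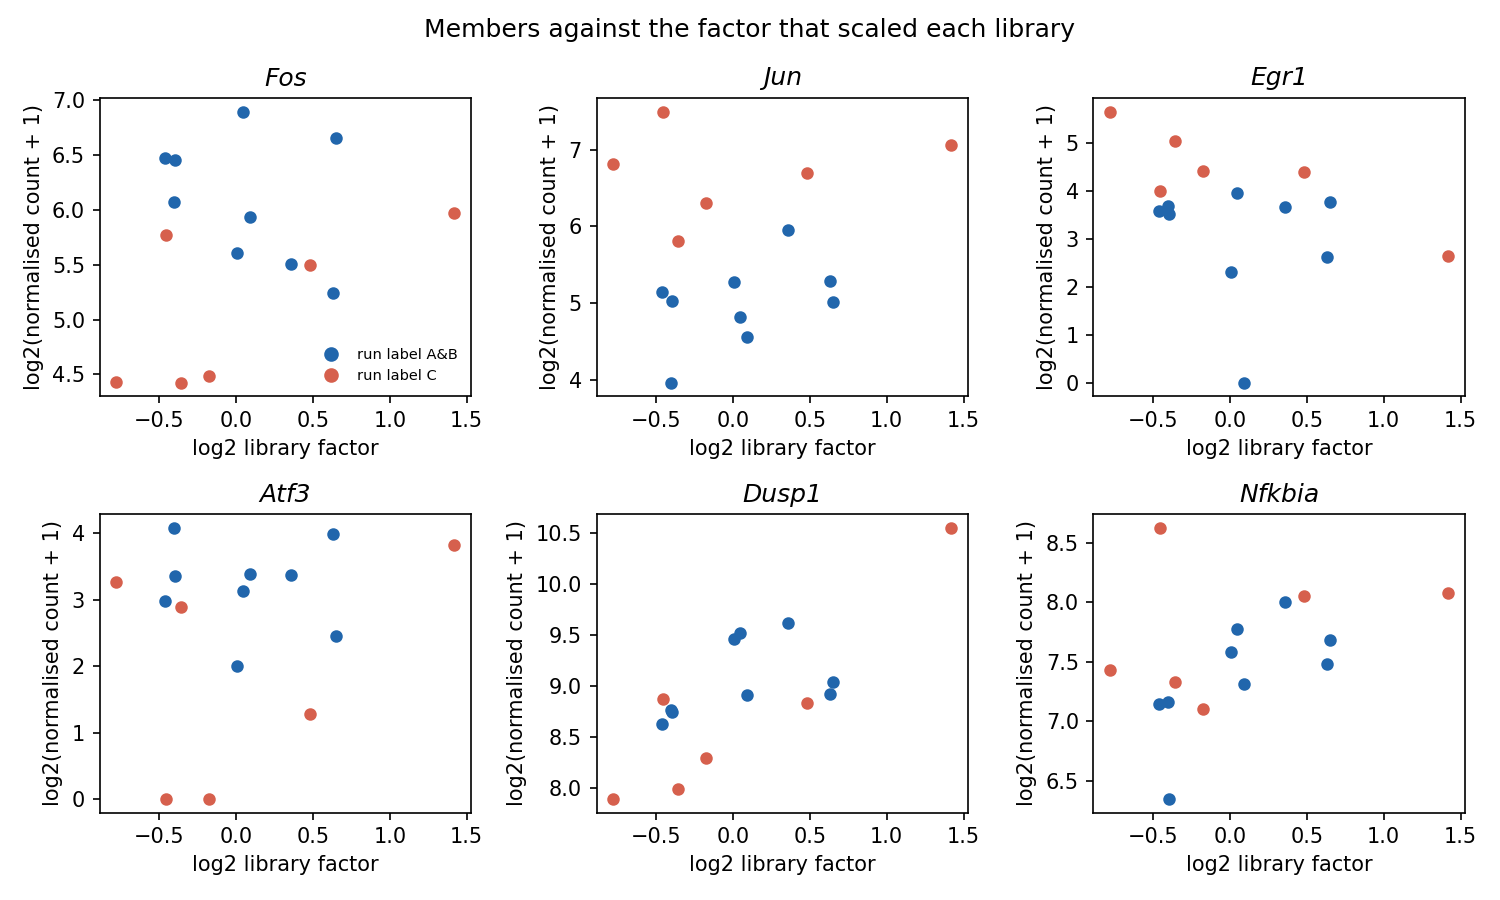
Log2(normalised count + 1) of each member (y axes) against the log2 of the factor that scaled its library (x axes), 15 libraries, coloured by run label. Dusp1 rises along the factor with 12 h replicate 3 at the upper right, and all Jun points of run label C lie above those of A&B apart from a sham library (60.9) above the lowest 12 h library (55.0).

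Nfkbia, the NF-kB inhibitor, had overlapping values in all neighbouring groups. In sham its normalised counts were 190, 255 and 177, and at 1 h they were 142, 218 and 158. At 6 h they were 394, 137 and 265, and at 12 h they were 160, 171 and 268. At 72 h they were 80.3, 204 and 140. Group means were 208 ± 41.9, 173 ± 40.3, 265 ± 128, 200 ± 59.5 and 142 ± 62.1 (SD, n = 3 each). The 6 h mean was 1.87 times the 72 h mean, and a single 6 h library held the highest value. The log2 difference at 72 h from sham was -0.63 (SE 0.40, limma adjusted p = 0.755). It was -0.94 without 72 h replicate 2 and -0.27 without 72 h replicate 1.

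Inside the groups, Fos, Jun, Dusp1 and Nfkbia varied together. After subtraction of group means, Fos followed Dusp1 with r = 0.89 and Nfkbia with r = 0.75, and Jun followed Nfkbia with r = 0.69 and Dusp1 with r = 0.57. Dusp1 and Nfkbia had r = 0.58. Without 12 h replicate 3, chosen after the data were seen, these 5 values were 0.85, 0.77, 0.64, 0.55 and 0.71. Egr1 had r of -0.41 to -0.02 with the others, and -0.41 with Dusp1 became 0.28 without that library. Atf3 had r of -0.09 to 0.12, and its r with Dusp1 went from 0.12 to -0.37. These are descriptions over 15 or 14 libraries that share their scaling, with no background from other features. The within-group SD on the log2 scale was 0.56 for Fos, 0.48 for Jun, 1.27 for Egr1, 0.67 for Atf3, 0.74 for Dusp1 and 0.53 for Nfkbia, beside a median of 0.637 over all features tested. The replicate spread of Egr1 was thus the widest of the 6.

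The Pearson r with the mean of the 6 members, each z-scored over the 15 libraries, was 0.71 for Dusp1 and for Nfkbia, 0.42 for Jun, 0.37 for Fos, 0.14 for Atf3 and 0.13 for Egr1. By a rule that names features by likeness to this mean, ENSRNOG00000057347 (r = 0.846) and ENSRNOG00000004806 (0.833) were most like it. ENSRNOG00000051885 (-0.786) and ENSRNOG00000046349 (-0.778) were most opposed. The single feature most like Fos had r = 0.946, and the one most like Jun had r = 0.931. For Egr1, Atf3, Dusp1 and Nfkbia the highest r was 0.864, 0.858, 0.906 and 0.857. These are the extremes over all annotated features tested in libraries that share scaling and run label, and they carry no test.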

How the data were processed

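Blood went into PAXgene tubes, which fix RNA on collection, per the labels' protocols. Each library came from 1 ug of RNA (NEBNext Ultra RNA kit) and was sequenced as pairs of 150 bp. The submitters' processing notes name Bowtie 0.12.2 and Rnor_6.0 with no role. No source used here gives the counting tool, strand setting or annotation, so reads shared with overlapping or antisense genes cannot be told apart.

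The deposited values are a signal: reads per feature that the authors divided by 1 factor per library. This was read from the values, 100% of which were whole reads within 0.01, at most 0.0053 away. Factors recomputed by the median-of-ratios method differed by at most 1.75e-09%. In sham replicate 1 the factor is near 1, so whole reads test its recovery less well, while the recomputed factors cover that library too.

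log2(value + 1) was fitted with limma 3.58.1 (trend, robust; two-sided) in R 4.3.3 to 11117 features and all 15 libraries, with Benjamini-Hochberg adjustment over those features. Fold changes on that scale understate low genes. Recovered reads were also tested with edgeR 4.0.16 and DESeq2 1.42.0. Other alternatives were pseudocounts, filters, scalings, array weights, the factor as covariate, a replicate block, subsets of groups and each library left out. Exact permutation of 3 against 3 libraries reaches a two-sided p of 0.1 at best, so no such test was made. The fit was tested on simulated data. Same-numbered libraries of 6 h and 12 h deviated together from their group means (r = 0.132, 0.147 and 0.448). In no other pair of groups were all 3 over 0.1. Differently numbered libraries were not compared, and the labels do not say what a number pairs, so pairing was not shown.

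The 6 members were named in every comparison, and like features by the highest and lowest r. No value entered the rule for the members, but the members and lists were chosen with earlier results of these data known. Symbols of the members came with their identifiers. The reference table matched 0 of the identifiers, so the list of other pathway genes and the cell type marker lists, held as symbols, were not used here.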

Additional observations from a re-analysis of the deposited data

Results flagged for a closer look

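Fos and Jun were singled out because their differences from sham at 6 h and 12 h were set against those at 1 h and 72 h by a test of that contrast. The log2 difference was -1.32 for Fos (SE 0.31, limma adjusted p = 0.0363) and 1.94 for Jun (SE 0.28, adjusted p = 0.00141), and it cannot be told apart from run label.

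In normalised counts, Jun libraries stood wholly above sham at 6 h and wholly below sham at 1 h and 72 h. At 6 h and 72 h this depended on the scaling. Per M reads outside the 5 dominant features, Jun was 7.65, 13.8 and 11.9 in sham. On that scale it was 23.0, 9.13 and 21.9 at 6 h and 5.14, 8.23 and 5.29 at 72 h. Both groups then overlapped sham. The 1 h values, 2.06, 5.49 and 4.49, stayed wholly below sham. In the limma fit to normalised counts, the fitted log2 value at 6 h exceeded that at 1 h by 2.385 and that at 72 h by 1.769. Neither of these pairs was tested by itself, and the contrast above covers them only in part. Outlying libraries were not tested for, because the groups hold only 3.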

How the results depend on the processing

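Of 616 recomputed values of 22 differences of the members, 582 kept their direction and their side of the threshold, 17 lost a call, 10 gained one and 7 changed sign. The sign changes were Dusp1 at 12 h against sham (0.0299 by edgeR, 0.0155 by DESeq2), Dusp1 in the contrast of middle with outer times (0.0935 by edgeR, 0.0743 by DESeq2, -0.63 to 0.0333 with libraries left out), and Fos at 6 h, which ranged from -0.46 to 0.18 with libraries left out. The Fos call between 6 h and 12 h and 1 h and 72 h was lost by edgeR (-1.18, adjusted p = 0.0670), with no filter (0.0605), with compared groups alone (0.0772) and with equal totals (-1.51, 0.300). With a library left out it was lost in 12 of 15 fits (0.0532 to 0.0978), and held without 6 h replicate 1 (0.0447), 6 h replicate 3 (0.0442) and 12 h replicate 3 (0.00221), with values of -1.58 to -1.13. Jun lost that call with equal totals (1.74, adjusted p = 0.142) and ranged from 1.78 to 2.13 with libraries left out. The cause was not tested.

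With equal totals the median log2 difference of all features from sham was -0.40 at 1 h, -0.73 at 6 h, then -0.54 and -0.41, beside 0.02, -0.04, -0.06 and -0.05 with the deposited scaling.

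Members called went from 0 at 6 h to 1 by DESeq2, 1 with the factor as covariate, 2 with array weights and 0 to 1 with libraries left out. Over all features, DESeq2 called 636 of 17599 there. The factor as covariate called 777 of 11117, array weights 1223, and fits with libraries left out 0 to 753. At 12 h the members called went from 0 to 3 with array weights, beside 3604 of 11117 features. With libraries left out they went to 0 to 1, and the fit that called 1, without 12 h replicate 3, called 1546 features. In the contrast the members called went from 2 to 1 by edgeR, with no filter or with compared groups alone. These settings called 198 of 11117, 149 of 17599 and 121 of 11117 features. Members called went to 0 with equal totals, beside 25 of 11112 features, and to 3 with array weights, beside 1753 of 11117. With libraries left out they went to 1 to 2, beside 93 to 956 features. Over the 5 groups they went from 1 to 5 with array weights, beside 3868 of 11117 features, and to 2 with the factor as covariate, beside 1343. They went to 0 with equal totals, beside 24 of 11112 features, and to 0 within A&B, beside 120 of 11117. With libraries left out they were 0 to 2, beside 35 to 1135 features.

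Counts over all features ran widely. At 1 h 15 became 0 to 352 (0 to 101 with libraries left out), at 6 h 54 became 33 to 1223 (0 to 753), and at 12 h 8 became 0 to 3604 (0 to 1546). At 72 h 0 became 0 to 108 (0 to 15), for 72 h against 1 h 2 became 0 to 228 (0 to 26), and for 12 h against 6 h 0 became 0 to 192 (0 to 8). In the contrast 205 became 25 to 1753 (93 to 956), and over the 5 groups 123 became 24 to 3868 (35 to 1135).

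Whether the replicate numbers pair libraries was not shown for any groups. Over all 30 pairs r of same-numbered deviations ran from -0.328 to 0.448, with 14 over 0.1. With the replicate block 0 features were called for 12 h against 6 h, as without it, and the Atf3 difference there had an adjusted p of 0.977. The Fos call in the contrast had an adjusted p of 0.0499. With the block 2 members were called in the contrast, beside 214 of 11117 features, and 1 over the 5 groups, beside 131. The features called went from 54 to 123 at 6 h and from 8 to 15 at 12 h.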

Other observations

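The ratio of Dusp1 to Nfkbia reads within each library, which does not depend on the factor, ran from 2.72 to 3.71 in sham, 3.04 to 3.37 at 1 h, 1.19 to 2.29 at 6 h, 1.38 to 5.59 at 12 h and 2.57 to 5.34 at 72 h. Every 6 h library lay below every sham library, and 12 h straddled sham. How many features have a ratio to Nfkbia that stands clear of sham was not computed. For ratios to Jun it was 53.6% of features at 6 h. The ratio of Dusp1 to Nfkbia was chosen after the values were seen and carries no test.

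The feature most like Fos over the 15 libraries, ENSRNOG00000018770, had group means of 31.1, 65.9, 21.6, 24.5 and 63.4 normalised counts from sham to 72 h. The feature most like Jun, ENSRNOG00000043416, had 79.0, 35.0, 174.9, 130.2 and 55.1. The files pair neither with a name.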
